A study of Mus musculus with 18 samples.

Results

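The interferon gamma and IL-12 axis was followed through 10 of the 32285 genes in the count matrices, which were described in lymphocytes of the mouse gut: Ifng, Tbx21, Eomes, Cxcr3, Stat4, Il12rb1, Il12rb2, Il18r1, Ifngr1 and Ifngr2. The genes were chosen by name, and the cells by what they carried: 20241 of the 59338 cells that passed the study's limits fell into 7 gates. A T cell was a cell with at least 1 Cd3e molecule and no Cd79a molecule. T cells were split into CD4 (Cd4 without Cd8a, Cd8b1 or Trdc), CD4 CD8a (both Cd4 and Cd8a, without Cd8b1 or Trdc), CD8ab (Cd8b1 without Cd4 or Trdc), CD8aa (Cd8a without Cd8b1, Cd4 or Trdc), gamma-delta (Trdc without Cd4 or Cd8b1) and other T cells. The Ncr1 gate held cells with Ncr1 and no Cd3e, which takes in natural killer cells, ILC1 and a part of the ILC3.

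Cells came from St8sia6 knockout (KO), heterozygous (het) and wild-type (WT) mice, and each of 3 independent runs used 1 KO, 1 het and 2 WT animals. St8sia6 encodes a sialyltransferase. The small bowel epithelium, the small bowel lamina propria and the colon, in which both layers were prepared as one, were enriched for CD45+ immune cells on beads after a Percoll gradient. The genotypes carried the hashtag antibodies C0301 (KO), C0302 (het) and C0303 (WT), were pooled by organ and were captured with 5' droplet chemistry. The labels give no age, sex or strain, and do not say which part of St8sia6 is deleted or in which cells. Barcode endings grouped the cells of each tissue into 3 libraries of 3 genotypes, but carried no run label, so libraries of different tissues could not be paired. WT cells of a library come from 2 pooled mice, and p-values measure the spread between these libraries.

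Interferon gamma, the product of Ifng, is the signature cytokine of type 1 immunity and acts on cells through the receptor pair Ifngr1 and Ifngr2. IL-12 from phagocytes and dendritic cells binds Il12rb1 with Il12rb2 and signals through Stat4 towards Ifng, IL-18 adds to this through Il18r1, and the T-box factors T-bet (Tbx21) and Eomesodermin (Eomes) drive type 1 programmes. Cxcr3 is the receptor for the chemokines Cxcl9 and Cxcl10, which interferon gamma induces. In the gut, intraepithelial lymphocytes and natural killer cells are known for cytotoxic and type 1 genes.

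Promoter sequences were read from RefSeq for GRCm38.p6 for 9 of the 10 genes; Il12rb1 had no entry. The 250 bases before each start were searched on both strands for the letters TCACAC, the core of a T-box element, and TTCNNNGAA, the gamma-activated site that STAT dimers bind. Ifng, Il12rb2 and Cxcr3, which hold a match and whose levels are followed below, are shown 5′ to 3′ on the gene's strand with matches in capitals. TCACAC was found for 2 of the 9 genes, Il12rb2 and Cxcr3, and TTCNNNGAA for 3, Ifng, Il12rb2 and the third start of Il18r1. Of all 32851 promoters of this length, 12.29% held TCACAC and 7.02% held TTCNNNGAA.
Ifng, chr10:118440796-118441045, plus strand: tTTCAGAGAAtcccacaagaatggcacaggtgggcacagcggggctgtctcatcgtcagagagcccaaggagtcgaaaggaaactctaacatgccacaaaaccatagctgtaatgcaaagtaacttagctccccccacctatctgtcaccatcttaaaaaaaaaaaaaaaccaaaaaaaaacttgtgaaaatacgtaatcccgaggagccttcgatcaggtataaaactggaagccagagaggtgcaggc
Il12rb2, chr6:67376189-67376438, minus strand: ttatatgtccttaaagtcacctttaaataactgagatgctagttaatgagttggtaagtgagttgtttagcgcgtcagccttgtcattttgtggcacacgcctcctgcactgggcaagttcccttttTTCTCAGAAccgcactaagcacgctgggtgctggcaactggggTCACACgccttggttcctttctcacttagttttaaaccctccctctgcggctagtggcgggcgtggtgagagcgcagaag
Cxcr3, chrX:101734148-101734397, minus strand: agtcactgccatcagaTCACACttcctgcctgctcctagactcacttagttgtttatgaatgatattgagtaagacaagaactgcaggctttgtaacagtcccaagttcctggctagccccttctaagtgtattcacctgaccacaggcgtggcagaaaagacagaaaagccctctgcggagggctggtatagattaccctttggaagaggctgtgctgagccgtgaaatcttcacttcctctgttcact
The match in the Ifng window lay 249 bases before the start. In the Il12rb2 window TCACAC lay 80 and TTCNNNGAA 123 bases before it, and in the Cxcr3 window TCACAC lay 234 bases before it. A match is a description of the letters in these windows.

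Depth and labels were checked before the genes were read. In the 3 tissues 16705, 21347 and 21286 cells were kept from the epithelium, the lamina propria and the colon, and the deposited matrices held 99383902, 158556738 and 191560456 molecules. Barcodes were shared by 0 cells within libraries and by 139, 190 and 197 across libraries of a tissue. The hashtag of the assigned genotype led in over 95% of the cells of 24 of 27 barcode endings; in the epithelium the WT hashtag led in 84.2% and 72.5% of the WT cells of libraries 1 and 2, and in the lamina propria in 55.7% of those of library 3. St8sia6 was at 30.7 to 38.0 CPM (molecules scaled to the total of the summed cells) in KO against 52.0 to 67.4 in WT cells of the lamina propria, at 7.33 to 9.89 against 12.4 to 19.0 in the colon, and at 1.10 to 4.77 against 1.85 to 4.97 in the epithelium. St8sia6 was therefore counted in all genotypes, KO and WT did not overlap in the lamina propria and the colon, and they did overlap in the epithelium. Since the deleted part is not given, these counts do not check the labels further. Of markers that did not set the gates, Cd40lg was found in 62.8% of epithelial CD4 T cells against 3.07% of CD8ab T cells. Tcrg-C1 was found in 75.8% of epithelial gamma-delta T cells, and its share in the other gates is not given here. Transcripts of other cell types were present in the gates: plasma cell transcripts were in nearly every lamina propria cell, with Igha in 100% of the Ncr1 cells there. Whether they came from free RNA or from doublets was not tested.

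Summed over genotypes, Ifng was highest in CD4 CD8a T cells of the epithelium and in Ncr1 cells of the colon, and CD4 T cells stood high in all 3 tissues. Of the 1117 epithelial CD4 CD8a T cells 819 were het and 74 WT, so that this sum weighs het cells most. In WT cells alone Ifng had a mean of 154 CPM (107 to 224 over libraries) in epithelial CD4 CD8a T cells and 329 CPM (174 to 443) in colon Ncr1 cells, ranges that overlapped. Over all genotypes, epithelial CD4 CD8a T cells gave 256, 408 and 253 CPM in libraries 1 to 3, and CD4 T cells 149, 171 and 93.6. CD8ab T cells gave 99.9, 98.1 and 75.6 CPM of Ifng, CD8aa T cells 49.1, 83.0 and 40.8, and gamma-delta T cells 23.2, 33.4 and 20.2. Ncr1 cells of the epithelium, of which there were only 64, gave 44.7, 41.0 and 31.7 CPM. CD4 CD8a T cells lay above every other gate in all 3 libraries, whereas the neighbouring CD4, CD8ab and other T cells overlapped. B cells gave 0 to 2.29 CPM of Ifng in the epithelium, which was taken as the background level.

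In the colon the order was different. Ncr1 cells gave 304, 277 and 162 CPM of Ifng, CD4 T cells 129, 108 and 228, and CD8ab T cells 95.2, 142 and 110. Gamma-delta T cells gave 102, 72.6 and 84.6 CPM, and CD8aa T cells 57.4, 85.3 and 77.5. The Ncr1 and CD4 ranges overlapped. In the lamina propria CD4 T cells gave 198, 87.7 and 45.5 CPM of Ifng, CD8ab T cells 81.9, 186 and 52.0, and gamma-delta T cells 24.2, 40.8 and 6.72. The 26 CD4 CD8a T cells of the lamina propria gave 80.9, 293 and 179 CPM, too few cells for a test. In this tissue 3 of 321 CD4 T cells held 50% of the Ifng molecules and 1 cell held 45 of 124, so that the level of library 1 rested on few cells.

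**Figure D1:**
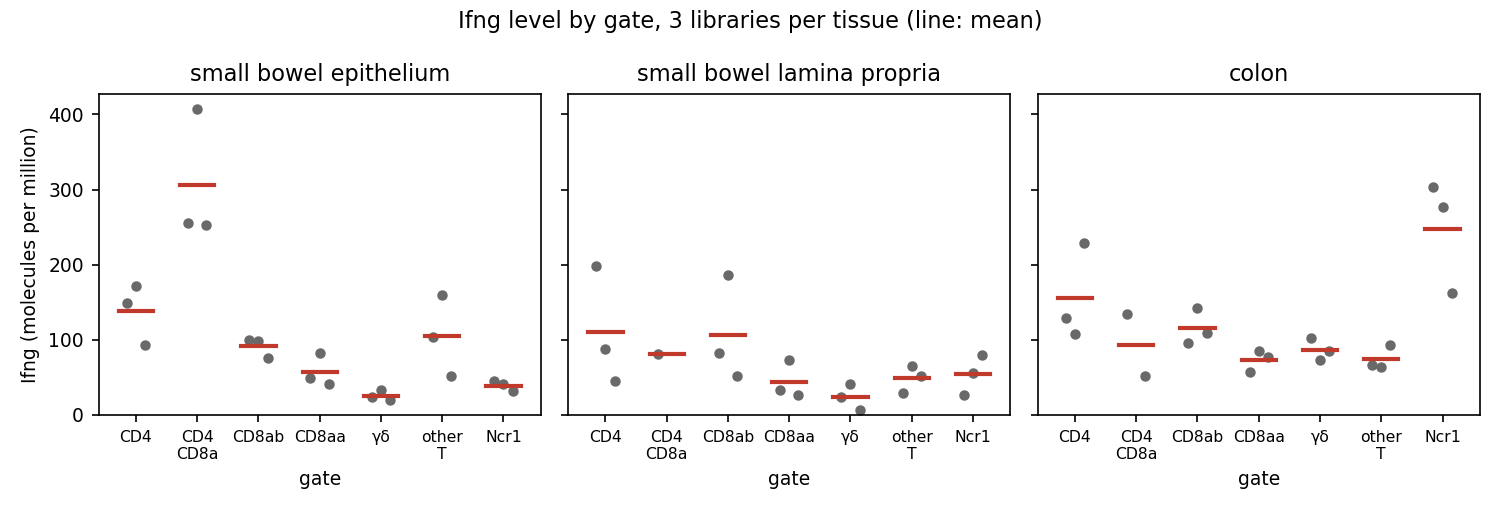
Ifng level by gate in CPM. Each point is 1 library summed over its genotypes, with sums of at least 10 cells, and the line is their mean. CD4 CD8a T cells of the epithelium (253 to 408) and Ncr1 cells of the colon (162 to 304) stand highest.

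The share of cells with at least 1 Ifng molecule followed the same order among the epithelial T cell gates named above. In the epithelium it was 56.6% of CD4 CD8a T cells, 31.4% of CD4, 23.8% of CD8ab, 15.6% of CD8aa and 10.6% of gamma-delta T cells. With every cell thinned to 1500 molecules the shares were 32.7%, 16.4%, 10.9%, 7.36% and 3.62%. In the colon 40.0% of Ncr1 cells and 21.4% of CD4 T cells had an Ifng molecule, or 18.8% and 12.1% after thinning. B cells had Ifng in 0.718% (epithelium), 0.629% (lamina propria) and 0.619% (colon) of cells, at a median depth in the colon of 4139 molecules against 4803 in CD4 T cells. The molecules were concentrated: 44 of 703 colon CD4 T cells with 5 or more molecules held 69.7% of that gate's Ifng, and 21 of 252 colon Ncr1 cells held 68.8%. In the epithelium 131 of 1117 CD4 CD8a T cells held 49.0%, and 8 of 3909 gamma-delta T cells held 10.3%.

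As a mean over the 3 libraries, CD8ab T cells held 31.6% of the epithelial Ifng molecules (15.9% to 46.5%) and made up 22.1% of the cells. CD4 CD8a T cells held 26.9% (14.5% to 44.8%) and made up 6.73%. These ranges overlapped. Summed over libraries the CD4 CD8a gate held 2079 of 6526 molecules against 1765, but 1490 of its molecules came from library 2. In libraries 1 and 3 it held fewer than CD8ab T cells, 384 against 580 and 205 against 657 molecules. CD8aa T cells held 12.6%, gamma-delta T cells 9.62%, although they made up 23.4% of the cells, and CD4 T cells 8.56%. In the colon Ncr1 cells were 1.21% of the cells and held a mean of 9.85% of the Ifng molecules, and CD4 T cells 14.4%. Barcodes with both Cd3e and Cd79a, which the gates leave out, held 28.5% of it in colon and 31.0% in lamina propria libraries. The gates of those tissues therefore cover only a part of the Ifng counted there.

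Differences between populations were tested as sums per library against CD4 T cells of the same tissue, with edgeR's quasi-likelihood test, the library as a block and Benjamini-Hochberg adjustment over all genes. Of 50 tests of the 10 genes, 34 passed an adjusted p of 0.05 in the epithelium (9 higher, 25 lower than in CD4 T cells), where 15.8% of all gene tests passed. In the lamina propria 14 of 40 passed, where 10.8% of all tests did, and in the colon 20 of 50, where 18.2% did. The median log2 difference of the 10 genes ran from -1.16 (CD8aa) to 0.15 (Ncr1) in the epithelium, and that of all genes from -0.15 to 0.02.

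Ifng itself was 1.13 log2 units (SE 0.13, adjusted p = 5.45e-06, edgeR) higher in epithelial CD4 CD8a than in CD4 T cells. It was lower in CD8ab (-0.56), CD8aa (-1.31), gamma-delta (-2.47, SE 0.14, adjusted p = 1.2e-10, edgeR) and Ncr1 cells (-1.92). In the colon it was lower in CD8aa (-1.20) and gamma-delta T cells (-0.93), and the difference of Ncr1 cells (0.81, SE 0.28) had an adjusted p of 0.0547 with edgeR. No lamina propria population passed the test for Ifng, where gamma-delta T cells came nearest (-2.12, SE 0.63). These sums pool the genotypes, and in the epithelium 819 of 1117 CD4 CD8a and 313 of 701 CD4 T cells were het. The part of this mix in the differences was not tested.

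**Figure D2:**
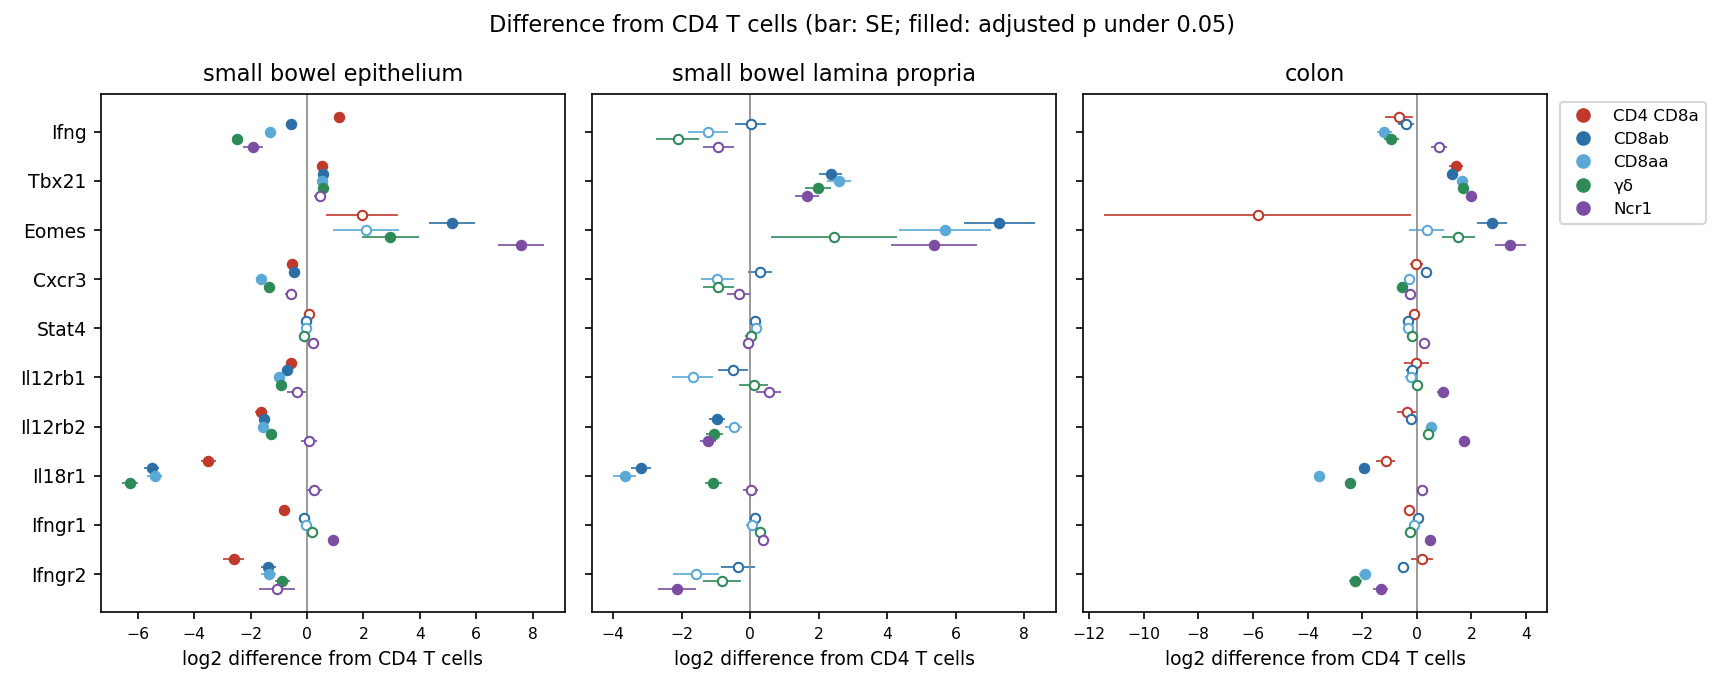
Log2 difference of each gene between a population and CD4 T cells of the same tissue, with the SE as a bar. Filled points passed an adjusted p of 0.05 with edgeR: Tbx21 lies to the right in all 3 tissues, Il18r1 to the left in the T cell gates (to -6.27), and Stat4 at 0.

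The transcription factors separated. Tbx21, the T-bet gene, was higher than in CD4 T cells in 13 of 14 comparisons, the exception being epithelial Ncr1 cells (0.47, adjusted p = 0.194, edgeR). In CD4 T cells Tbx21 was at 83.2, 92.0 and 76.7 CPM for the epithelium, 33.0, 40.5 and 16.8 for the lamina propria, and 33.5, 47.4 and 46.8 for the colon. The epithelial CD4 T cells stood above those of both other tissues without overlap. Tbx21 differences were 0.53 to 0.59 log2 units in the epithelial T cell gates, 1.67 to 2.59 for lamina propria gates and 1.29 to 2.00 for colon gates.

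Eomes, the related factor of memory CD8 T cells and natural killer cells, was highest in the Ncr1 and CD8ab gates of the epithelium and colon and in the CD8ab gate of the lamina propria. Among the libraries, epithelial CD4 T cells gave 0, 0 and 1.13 CPM, CD8ab T cells 10.7, 11.7 and 6.44, and Ncr1 cells 61.4, 88.9 and 21.1. In the lamina propria CD8ab T cells gave 42.8, 54.7 and 71.5 CPM of Eomes, and in the colon 28.5, 31.8 and 33.6. No Eomes molecule was counted in lamina propria CD4 T cells, 0 of 93, 111 and 117 cells, which allows a share of up to 3.23%, 2.70% and 2.56% of cells with a molecule. Eomes passed the test against CD4 T cells in CD8ab and Ncr1 cells of every tissue (edgeR adjusted p from 3.66e-06 to 0.00768), in CD8aa T cells of the lamina propria and in gamma-delta T cells of the epithelium. In the colon the differences were 2.77 (SE 0.55) for CD8ab and 3.43 (SE 0.57) for Ncr1 cells. With 1 library left out they ran from 2.30 to 4.41 for CD8ab and from 2.77 to 5.04 for Ncr1 cells. The highest values were those without library 3, which held most of the Eomes of colon CD4 T cells. In the small bowel CD4 T cells held too few Eomes molecules for a fold.

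Stat4, which carries the IL-12 signal into the nucleus, did not pass the test in any of the 14 population comparisons with edgeR (differences from -0.33 to 0.27). Its level depended on the tissue: CD4 T cells gave 796, 790 and 702 CPM in lamina propria libraries, 400, 413 and 422 in epithelial and 291, 421 and 389 in colon libraries. CD4 T cells of the lamina propria lay above those of both other tissues in every library.

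Il12rb2, the inducible signalling chain, was at 279, 282 and 364 CPM in epithelial CD4 T cells and at 101, 108 and 108 in CD8ab T cells. In epithelial Ncr1 cells it was at 262, 397 and 401 CPM, and in colon Ncr1 cells at 218, 290 and 317. Colon CD4 T cells were low for Il12rb2, with 68.3, 90.2 and 117 CPM. Against CD4 T cells Il12rb2 was lower in all 4 other epithelial T cell gates tested (-1.26 to -1.62), and higher in colon Ncr1 (1.72, SE 0.18, adjusted p = 3.61e-06, edgeR) and CD8aa cells (0.50). In the lamina propria it was lower in CD8ab (-0.97), gamma-delta (-1.06) and Ncr1 cells (-1.22).

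Il12rb1, the chain shared with the IL-23 receptor, was lower than in CD4 T cells in epithelial CD4 CD8a (-0.56), CD8ab (-0.69) and gamma-delta T cells (-0.94), and also in CD8aa T cells, and higher in colon Ncr1 cells (0.95, SE 0.22, adjusted p = 0.00592, edgeR). Epithelial CD4 T cells gave 69.8, 59.4 and 66.5 CPM of Il12rb1 and epithelial CD8ab T cells 40.1, 39.2 and 37.6, with no overlap.

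Il18r1, the ligand-binding chain of the IL-18 receptor, differed widely among T cells. Epithelial CD4 T cells held 146, 136 and 197 CPM of Il18r1, while CD8ab T cells held 4.82, 2.79 and 2.88 and gamma-delta T cells 1.36, 3.13 and 1.40. The last values were close to those of epithelial B cells (0.537 to 2.29 CPM). Against CD4 T cells the difference was -3.49 in CD4 CD8a, -5.50 in CD8ab, -5.40 in CD8aa and -6.27 (SE 0.28, adjusted p = 4.56e-12, edgeR) in gamma-delta T cells. Ncr1 cells did not pass for Il18r1 in any tissue (0.01 to 0.25).

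Lamina propria gamma-delta T cells held Il18r1 at 242, 154 and 114 CPM, far from the epithelial level with a difference from CD4 T cells of -1.07 log2 units (SE 0.24, adjusted p = 0.00899, edgeR). Colon gamma-delta T cells lay between, with 30.6, 21.3 and 38.0 CPM.

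Cxcr3 was highest in epithelial CD4 T cells (104, 114 and 113 CPM) and colon CD8ab T cells (106, 107 and 91.1). It was lower than in CD4 T cells in epithelial CD8aa (-1.62), gamma-delta (-1.35), CD4 CD8a (-0.54) and CD8ab T cells (-0.46), and in colon gamma-delta T cells (-0.56). No lamina propria population passed for Cxcr3.

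The receptor for interferon gamma differed in its chains. Ifngr1, the ligand-binding chain, was highest in Ncr1 cells in the epithelium (765, 999 and 697 CPM) and the colon (891, 950 and 928). It was lower in epithelial CD4 CD8a (242, 213 and 240 CPM) than in CD4 T cells (378, 413 and 415), a difference of -0.81 log2 units (SE 0.10, adjusted p = 1.73e-05, edgeR), and higher in Ncr1 cells of the epithelium (0.93) and the colon (0.49).

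Ifngr2, the signalling chain, was lowest among the epithelial T cell gates in CD4 CD8a T cells, which gave 2.00, 3.83 and 4.93 CPM against 31.9, 19.8 and 14.7 in CD4 T cells. That difference was -2.59 (SE 0.38, adjusted p = 8.43e-05, edgeR), and those of the other epithelial T cell gates were -0.88 to -1.37. Colon CD4 T cells held 87.9, 61.5 and 74.8 CPM of Ifngr2, and colon CD8aa and gamma-delta T cells differed from them by -1.90 and -2.25 log2 units.

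Lyz2, a myeloid gene, was found in 16.8% of the colon CD4 T cells at 1255 CPM, against 1.85% and 44.7 CPM in the epithelium. Epithelial and myeloid cells themselves had Ifngr2 at 90.7 and 115 CPM in the colon. The part of these cells' RNA in the Ifngr2 level of colon CD4 T cells was not tested.

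**Figure D3:**
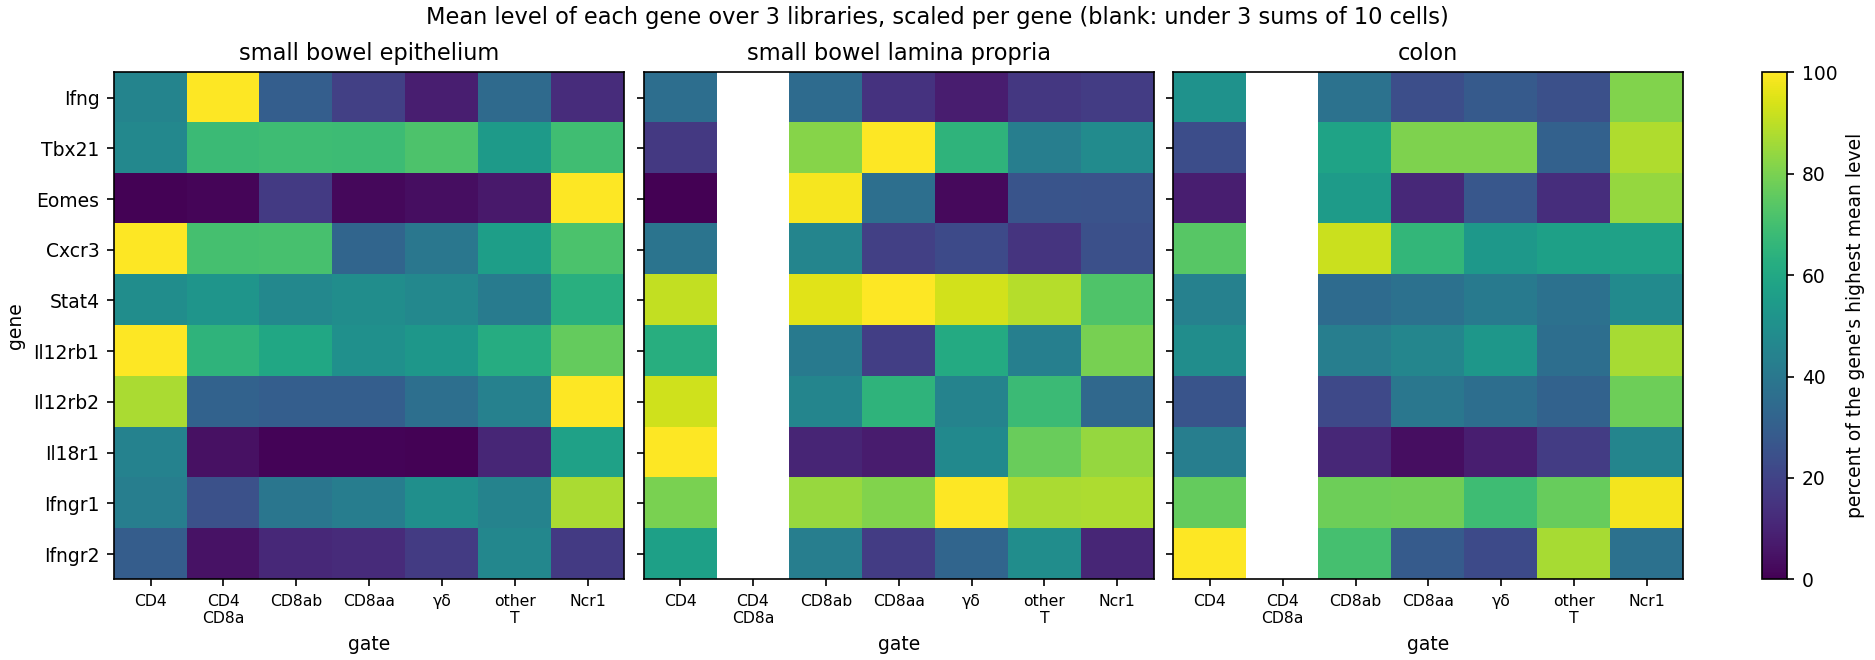
Mean level of each gene over 3 libraries, as a percent of that gene's highest mean over all gates and tissues; white columns had fewer than 3 sums of 10 cells. Stat4 is bright across the lamina propria (CD4 T cells at 702 to 796 CPM), Il18r1 is dark in most epithelial T cell gates, and Ifng is brightest in epithelial CD4 CD8a T cells.

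Between tissues, the same gates were compared without pairing. The colon CD4 CD8a gate, with 39 cells, had fewer than 3 sums of at least 10 cells. From the epithelium to the lamina propria 28 of 59 tests of the 10 genes passed (4 higher, 24 lower in the epithelium), where 21% of all gene tests passed. Colon minus lamina propria gave 30 of 59 (24.1% of all tests) and colon minus epithelium 31 of 68 (20.8% of all tests), of which 24 were higher in the colon. Against the lamina propria, the genes lower in the epithelium included Stat4 in 5 of 6 gates, Il18r1 in 6 of 6, Ifngr1 in 5 of 6 and Il12rb2 in 3 of 6, while Cxcr3 was higher in 2 and Il12rb1 passed in 0. In WT cells alone, with fewer sums, 10 of 37, 9 of 47 and 11 of 45 tests passed in place of 28, 30 and 31. The share of all gene tests that passed was not taken for the WT fits.

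Stat4 differed by -1.08 to -1.34 log2 units between the epithelium and the lamina propria in the 5 T cell gates tested. Its difference in Ncr1 cells (-0.61) had an adjusted p of 0.0646 with edgeR. Between the colon and the lamina propria it differed by -0.78 to -1.55 in all 6 gates tested. Ifngr1 fell by 1.03 to 1.30 log2 units in the epithelial T cell gates, and in the colon it was 0.80 to 1.56 higher than in the epithelium in 5 of 7 gates. Il18r1 differed by -0.97 (Ncr1) to -6.51 (gamma-delta) log2 units between the epithelium and the lamina propria. Median depth per cell differed between the tissues, with 2316 to 3120 molecules over lamina propria gates, 4428 to 5538 over epithelial and 4749 to 6038 over colon gates. CPM divide by depth, and its part in these differences was not tested.

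Ifng moved with the tissue in few gates. It was higher in the colon than in the epithelium in Ncr1 cells (2.84, SE 0.41, adjusted p = 0.00453, edgeR) and gamma-delta T cells (1.78, SE 0.21, adjusted p = 0.000154, edgeR). The libraries of these gates did not overlap between the tissues, 162 to 304 against 31.7 to 44.7 CPM in Ncr1 cells. Against the lamina propria the colon was higher by 2.15 in Ncr1 and 1.68 in gamma-delta T cells. CD4 CD8a T cells were lower for Ifng in the colon than in the epithelium (-1.50, adjusted p = 0.0181, edgeR), where the colon had only 39 such cells. No gate passed for Ifng between the epithelium and the lamina propria.

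The Ncr1 gate differed in its makeup between tissues: Cd79a, a B cell gene, was found in 3.13% of Ncr1 cells in the epithelium, 18.3% of those of the lamina propria and 15.5% of colon ones. The NK and ILC1 markers together gave 6243 to 8173 CPM in epithelial sums, 1201 to 3423 in lamina propria sums and 2822 to 8238 in colon sums. The part of this makeup in the Ifng difference was not tested.

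Cxcr3 was higher in the colon than in the lamina propria in all 6 gates tested (0.85 to 1.70). In WT cells alone the CD8ab value turned to -0.26 (adjusted p = 0.774, edgeR). Il12rb2 in CD4 T cells was lower in the colon than in the epithelium (-1.64) and the lamina propria (-1.92, SE 0.21, adjusted p = 6.82e-05, edgeR). In Ncr1 cells it was higher than in the lamina propria both in the colon (1.05) and in the epithelium (1.17). Ifngr2 was higher in the colon than in the epithelium in 5 of 7 gates (0.94 to 4.47), with the highest value in CD4 CD8a T cells. Tbx21 in CD4 T cells was 1.29 higher in the epithelium than in the lamina propria while colon cells differed from epithelial ones by -0.89. Eomes in CD8ab T cells differed by -2.77 log2 units (SE 0.31, adjusted p = 2.64e-05, edgeR) between the epithelium and the lamina propria.

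Ifng was also compared between cells of 1 gate with and without a second gene, after thinning, as a description per library. In colon CD4 T cells 24.4% of cells with Il12rb2 had Ifng against 10.1% without (a difference of 11.9 to 17.2 points in the 3 libraries). The difference was 6.65 to 11.0 points in epithelial and 5.52 to 9.05 in lamina propria CD4 T cells. In epithelial CD8ab T cells the shares were 9.35% and 11.1%, and in CD8aa T cells 7.75% and 7.30%, so that the sign of the difference varied between libraries there. Il12rb2 gave 27.4% against 14.3% in colon and 18.8% against 6.52% in lamina propria Ncr1 cells, and 0% against 8.07% in lamina propria CD8aa T cells. Tbx21 gave 27.3% against 10.9% in colon CD4 T cells and 10.9% against 10.8% in epithelial CD8ab T cells. In epithelial CD4 T cells the Tbx21 difference was -2.99 to 14.05 points and positive in 1 library. In colon CD8ab, CD8aa, gamma-delta, Ncr1 and other T cells it was positive in all 3 libraries. Il18r1 gave 22.3% against 9.65% in colon CD4 T cells, 28.4% against 15.6% in colon Ncr1 cells and 24.8% against 10.2% in epithelial other T cells. It gave 5.41% against 5.85% in lamina propria CD4 T cells, and in colon CD8ab T cells the difference was -11.8 to 2.77 points over libraries. For Ifngr2, only 29, 21 and 18 colon CD4 T cells were positive, and 1 of them had Ifng.

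**Figure D4:**
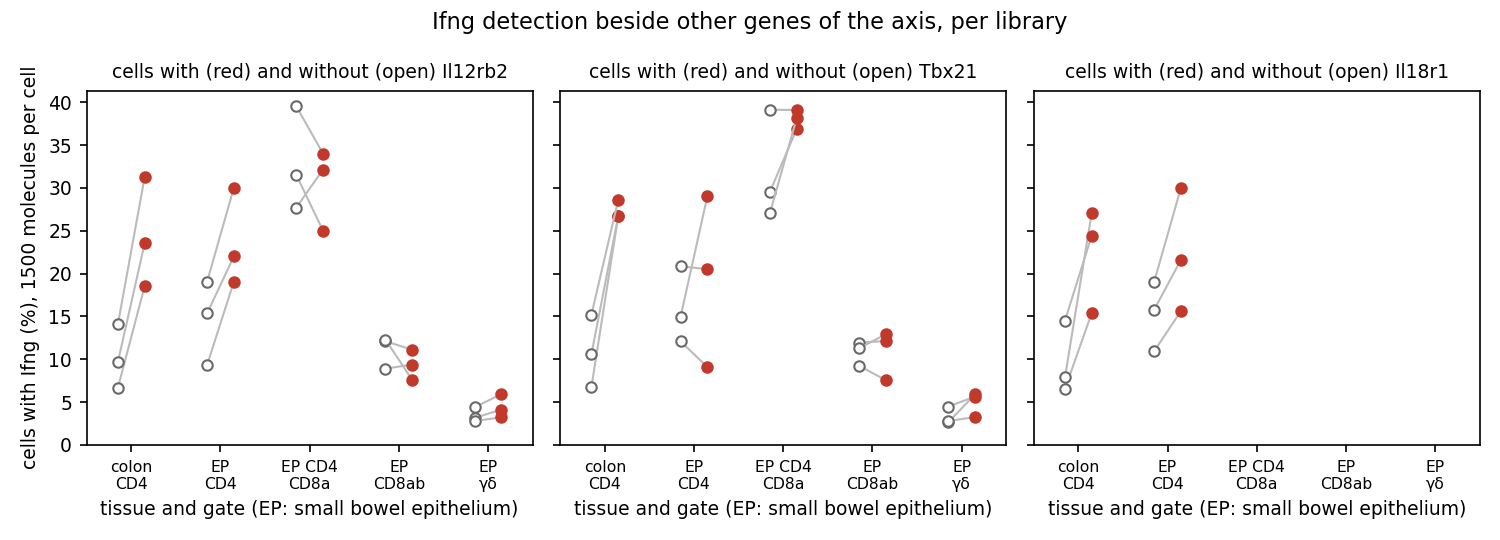
Percent of cells with Ifng among cells without (open) and with (red) Il12rb2, Tbx21 or Il18r1, at 1500 molecules per cell. Lines join the 2 values of a library; of the gates drawn, only the CD4 gates had enough Il18r1-positive cells. CD4 T cells of the colon average 10.1% without and 24.4% with Il12rb2, and epithelial CD8ab T cells 11.1% and 9.35%.

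The design asks whether loss of St8sia6 alters these cells. Across 17 gate and tissue fits, 0 of 133 tests of the 10 genes passed for KO minus WT with edgeR, where 0.103% of all gene tests passed. At an unadjusted p under 0.05 there were 21, and DESeq2 also gave 0. For het minus WT 0 of 133 passed with edgeR (31 unadjusted, 1 with DESeq2), where 0.11% of all gene tests passed. For KO minus het 0 of 137 passed with edgeR (16 unadjusted, 0 with DESeq2), where 0.0169% of all tests did. KO minus WT and het minus WT share the WT sums.

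Ifng in the epithelium was below both other genotypes in WT in most sums. WT gamma-delta T cells gave 8.90, 11.4 and 13.5 CPM in libraries 1 to 3, KO cells 32.7, 25.7 and 29.3, and het cells 15.7, 47.3 and 21.0. WT CD4 CD8a T cells, with sums of only 11, 15 and 48 cells, gave 224, 107 and 130 CPM, KO cells 280, 349 and 319, and het cells 250, 429 and 235. Among CD8ab T cells, WT gave 42.3, 89.0 and 61.7 CPM, KO 122, 97.2 and 87.5, and het 87.2, 102 and 102. KO and WT did not overlap in gamma-delta or CD4 CD8a T cells and overlapped in CD8ab T cells. KO lay above WT in 17 of 18 pairs of a gate and a library, and het above WT in 17 of 18. CD4 T cells of library 3 went the other way in both, with WT at 105 CPM, KO at 90.0 and het at 79.1. The gates of a library come from the same mice, and both counts use the same WT sums. The 18 pairs are therefore not independent. How many of all genes show such a pattern, or such a lack of overlap, was not counted.

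The Ifng differences were 0.63 to 1.35 log2 units for KO minus WT and 0.55 to 2.29 for het minus WT over the 6 epithelial T cell gates, and no gate passed the test (edgeR adjusted p from 0.158 to 0.692 for KO and from 0.154 to 0.558 for het). In gamma-delta T cells KO minus WT was 1.35 (SE 0.35, adjusted p = 0.205, edgeR). Without library 2 the gamma-delta difference was 1.39 with an adjusted p of 0.0408 (edgeR), and without library 3 that of other T cells was 1.82 with 0.0482. Without the filter on low counts, 5 of the 6 gates passed (adjusted p = 1.25e-09 in gamma-delta T cells and 0.0975 in CD4 T cells, edgeR). There edgeR's median prior degrees of freedom were infinite, against 5.37 to 12.4 with the filter, and the genes called for KO minus WT rose from 26 to 254 in gamma-delta T cells.

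In the epithelial T cell sums the WT cells had median depths of 3480 to 6087 molecules and the KO cells 3900 to 5972, and the summed epithelial markers were at medians of 542 CPM in WT, 462 in KO and 405 in het. WT cells of libraries 1 and 2 were those in which the WT hashtag led least often. By the rule per cell, 57.5% of library 3 KO gamma-delta T cells kept their genotype, against 93.1% and 87.1% of WT ones of libraries 1 and 2. In other T cells these shares were 52.7%, 62.3% and 49.1%. The part of these in the Ifng values was not tested; with only the cells led by the hashtag of their ending, the counts of genes passing in the 3 contrasts stayed at 0.

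**Figure D5:**
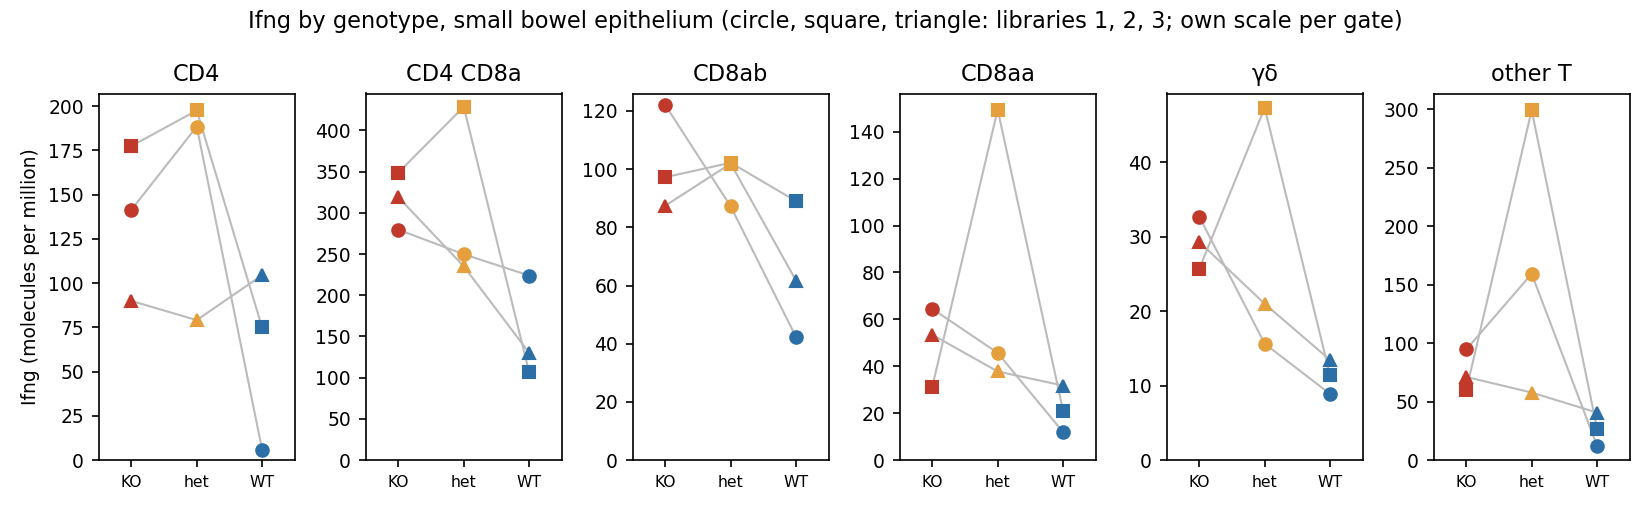
Ifng in CPM for KO, het and WT cells of 6 T cell gates of the small bowel epithelium. Each marker is a library (circle 1, square 2, triangle 3), grey lines join its genotypes, and each panel has its own scale from 0. WT lies lowest in most panels (8.90 to 13.5 in gamma-delta T cells), and no gate passed the test.

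In the colon Ifng did not follow this order. WT Ncr1 cells gave 443, 370 and 174 CPM, KO cells 271, 237 and 159, and het cells 55.5, 160 and 120. Het lay below WT in each library (-1.64, SE 0.36, adjusted p = 0.480, edgeR), and KO minus WT was -0.38. For KO minus WT, Ifng differences in the 6 colon gates ran from -0.38 to 0.67 (smallest edgeR adjusted p = 0.945). The interaction of KO minus WT with tissue was tested in 6 gates for 9 or 10 of the genes each, and 0 passed with edgeR, where 0.00987% of all gene tests passed. At an unadjusted p under 0.05 there were 0 to 2 in a gate, and DESeq2 was not run for the interaction. 

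Ifngr2 in epithelial CD4 T cells came nearest to the threshold of all 403 genotype tests, for het minus WT (-2.09, SE 0.47, adjusted p = 0.0678, edgeR), with KO minus WT at -1.17. Cxcr3 in epithelial other T cells was the nearest for KO minus WT (0.93, SE 0.18, adjusted p = 0.123, edgeR), with het minus WT at 0.88. In the same gates Il12rb1 differed by 1.02 in KO and 1.15 in het CD4 T cells, neither of which passed.

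The neighbouring genes of the pathway were read from lists, where 15.8% (epithelium), 10.8% (lamina propria) and 18.2% (colon) of all gene tests against CD4 T cells passed. Type 1 effector genes were higher than in CD4 T cells in 59 and lower in 54 of 174 tests. Nkg7, a cytotoxic granule protein, was higher in 14 of 14 comparisons, the chemokine Ccl5 in 12 and granzyme B (Gzmb) in 11, while Il2 and Lta, cytokine genes of helper cells, were lower in 4 of 10 each. Signalling genes were higher in 18 and lower in 44 of 154 tests: Jak2, the kinase at Il12rb2 and Ifngr2, was lower in 13 of 14 comparisons and Socs3 in 9, and Runx3, a partner of T-bet, was higher in 9. The IL-18 receptor's second chain, Il18rap, was lower in 9 of 14, as Il18r1 was in 10. Of the interferon gamma targets 70 tests were lower and 11 higher of 235. Iigp1 was lower than in CD4 T cells in 10 of 14 comparisons and Gbp3 in 9, both GTPases of cell-autonomous defence.

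Between tissues, interferon gamma targets were higher in the colon than in the epithelium in 48 of 121 tests and lower in 5, all of them Nlrc5, where 20.8% of all gene tests passed. Against the lamina propria they were higher in 29 and lower in 13 of 104 tests in the colon (24.1% of all tests), and higher in 17 and lower in 18 of 104 in the epithelium (21%). Cxcl10 and Iigp1 were higher in the colon than in the epithelium in 6 of 7 gates each. Lyz2 moved with them, at 143 to 1805 CPM in the colon gates against 0 to 44.7 in the epithelial ones, and its part was not tested. The immunoproteasome genes Psmb8 and Psmb9 were higher in the colon than in the lamina propria in 6 of 6 gates. Cxcl9, a ligand of Cxcr3, was lower in the epithelium than in the lamina propria in 4 of 4 gates. Its molecules were few, with 28 in lamina propria and 9 in epithelial CD4 T cells, and 61 and 0 in Ncr1 cells. Myeloid cells of the lamina propria held 69.4 CPM of Cxcl9, and the part of their free RNA was not tested. Between genotypes 4 of 562 effector, 2 of 516 signalling, 1 of 662 target and 0 of 6 ligand tests passed with edgeR, over all 3 contrasts. Of all gene tests, 0.103% passed for KO minus WT, 0.11% for het minus WT and 0.0169% for KO minus het. For KO minus WT these were Cxcl10 in colon other T cells (1.62, adjusted p = 0.0114), Zeb2 in epithelial CD4 CD8a T cells (1.51), Ccl5 in epithelial CD8aa T cells (0.54) and Irf1 in epithelial CD8ab T cells (-0.49). For het minus WT they were Gzmb (1.92), Nkg7 (1.16) and Runx3 (1.29) in epithelial CD4 T cells. The epithelial CD4 CD8a and CD4 gates held 819 and 313 het cells against 74 and 135 WT cells. CD4 CD8a T cells without a counted Cd8a molecule fall into the CD4 gate. Their part in the het minus WT values of epithelial CD4 T cells was not tested.

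The cytokines that act on these receptors were read in the other cells of the libraries. Il12b, the shared IL-12 and IL-23 subunit, was found in myeloid cells (Csf1r, Xcr1 or Clec9a outside the lymphocyte gates) at 11.2 to 15.0 CPM for the lamina propria, 0 to 94.9 for the epithelium and 0 to 26.3 for the colon. These levels rested on few cells. Il12b was in a mean of 2.19% of 369 lamina propria, 0.521% of 225 epithelial and 1.56% of 288 colon myeloid cells. Il12a, the other IL-12 subunit, was in B cells at 10.9 ± 3.45 CPM (SD, n = 3) in the colon, 6.63 ± 2.17 among epithelial and 1.06 ± 0.171 among lamina propria cells. Il18 was highest in epithelial cells, at 66.7 ± 10.1 CPM in the colon, 50.4 ± 11.1 in the epithelium and 12.3 ± 3.98 in the lamina propria preparation. The Cxcr3 ligands Cxcl9 and Cxcl10 were in colon myeloid cells at 280 ± 191 and 333 ± 79.1 CPM. Myeloid cells of the lamina propria held 69.4 ± 24.4 and 187 ± 35.5 CPM of them.

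Across the 21 gate and tissue points, the genes with the most similar pattern to each of 3 members were listed as a description, without a test, among 8889 genes. For Ifng they were Trpv2 (Pearson r = 0.71), Erp44 (0.70), Cyba (0.70), H2-Q7 (0.70) and Tnfsf9 (0.66). For Tbx21 they were Chst12 (0.84), Sult2b1, Litaf, Adgrg5 and Crtam, and for Eomes Selenon (0.815), Samd3, Ly6c2, Ctla2b and Sh2b3. The points share libraries and depth within a tissue. No minimum of cells was set for them, and the lamina propria CD4 CD8a point held 26 cells over its libraries.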

How the data were processed

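Gene expression and hashtag matrices of 3 tissues were analysed. Per the submitters' processing notes the reads were aligned with Cell Ranger and handled with Seurat on mm10, with versions not given in the sources used here. The deposited values are counts of unique molecules per gene and cell, not normalized; the other deposited files name genes, hashtags and barcodes. Cells with under 200 or over 8000 genes, under 300 or over 50000 molecules, or 20% or more mitochondrial counts were removed, as the design text states. Genotype was the hashtag with the highest median over the cells of a barcode ending. The doublet treatment was the loss of cells with both Cd3e and Cd79a from the T cell gates; no doublet caller was run.

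Counts were summed per gate and library, split by genotype where genotypes were compared, sums under 10 cells were left out, and edgeR 4.0.16 in R 4.3.3 (TMM, filterByExpr, quasi-likelihood test) gave log2 differences, SEs and adjusted p-values over all genes tested. Libraries were a block except between tissues. CPM are molecules scaled to the total molecules of the sum, and levels are not compared between genes. Shares of cells thinned to 1500 molecules leave out shallower cells. The test was checked on simulated data. The 10 genes and the lists were chosen with earlier results of these data known, and 3 kinds of alternative (cells led by the hashtag of their ending, T cells with Cd79a, Ncr1 cells without Cd79a) were added after seeing the data. All 10 genes are named; from the lists at most 8 genes a comparison with the lowest adjusted p among those called, and for likeness the 5 genes with the highest Pearson r. Other genes of the lists were chosen with their values in view.

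Differences were called at an adjusted p under 0.05. Other settings were DESeq2 1.42.0, RLE size factors, no low-count filter, each library left out, a stricter Cd3 gate, no top 5% of cells by molecules, WT cells alone, and hashtags read per cell. A split of the Ncr1 gate and some listed genes are not reported here. Python 3.11.15 was used for the gates.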

Additional observations from a re-analysis of the deposited data

How the results depend on the processing

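The number of tests of the 10 genes past the threshold for KO minus WT was 0, and was 10 without the low-count filter, 1 without the top 5% of cells and from 0 to 3 with 1 library left out. For het minus WT it was 0, and was 1 with DESeq2, 11 without the filter, 2 without the top 5% of cells, 1 with T cells that hold Cd79a and from 0 to 3 with 1 library left out. For KO minus het it was 0, and 4 without the filter. Between populations the lamina propria count was 14, and from 8 to 11 with 1 library left out. Between tissues in WT cells alone 11 of 45 tests passed for colon minus epithelium, against 31 of 68. For colon minus lamina propria 9 of 47 passed, against 30 of 59. For epithelium minus lamina propria 10 of 37 passed, against 28 of 59. Fewer cells and sums were tested in WT cells alone, and the share of all gene tests that passed was not taken there.

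Ifng for KO minus WT in epithelial gates without the filter was 1.19 in CD4 CD8a (adjusted p = 0.0011, edgeR), 0.65 in CD8ab (0.000263), 1.02 in CD8aa (0.000762), 1.35 in gamma-delta (1.25e-09) and 1.23 in other T cells (0.000835). With 1 library left out it ran from 0.37 to 1.80 in CD4, 0.95 to 1.33 in CD4 CD8a, 0.34 to 0.87 in CD8ab, 0.53 to 1.54 in CD8aa, 1.09 to 1.63 in gamma-delta and 0.70 to 1.82 in other T cells. The prior degrees of freedom are given with the result as a description, and the cause of these changes was not tested.

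Values that changed sign in WT cells alone were Ifngr2 in CD4 T cells between the epithelium and the lamina propria (0.0491), Il12rb2 in CD8ab T cells in the same comparison (0.20), Cxcr3 in CD8ab T cells between colon and lamina propria (-0.26) and Il12rb2 in CD8aa T cells between colon and epithelium (-0.0330). With T cells that hold Cd79a, Ifngr1 and Tbx21 in other T cells between colon and lamina propria were 0.0486 and 0.0228, and Ifng for KO minus WT in the colon was 0.0306 in CD4 and -0.0817 in CD8ab T cells. With 1 library left out, Ifng for KO minus WT ran from -0.76 to 0.44 in colon CD4, from -0.25 to 0.45 in colon CD8ab, from -0.0317 to 0.90 in colon gamma-delta and from -0.24 to 1.62 in lamina propria CD4 T cells, and Il12rb2 in lamina propria CD4 T cells ran from -1.73 to 0.36. With hashtags read per cell, Ifng in colon CD8ab T cells was -0.0414. None of these genotype values passed the threshold in either fit.

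Without the library as a block (no replicate block) that value was -0.0111, the genotype counts stayed at 0, and 5 of 68 population calls no longer passed. No paired analysis was possible between tissues because barcode endings carry no run label.

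Shares of cells with Ifng fell with thinning to 32.7%, 16.4%, 10.9%, 7.36% and 3.62% in epithelial CD4 CD8a, CD4, CD8ab, CD8aa and gamma-delta cells, to 18.8% and 12.1% in colon Ncr1 and CD4 cells and to 5.78% in lamina propria CD4 cells. DESeq2 kept the calls of 66 of 68 population and 87 of 89 tissue results, and RLE size factors kept all 68 and 89. Depth limits the Ncr1 gate of the epithelium (64 cells), the WT CD4 CD8a sums (11 to 48 cells) and the lamina propria, where sums hold few molecules of Eomes and Ifng.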
